A study of Arabidopsis thaliana with 4 samples.

Results

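The mitotic B-type cyclin genes and the CDKB kinase genes of Arabidopsis thaliana were followed in an mRNA-seq comparison of 2 genotypes. They were chosen by locus identifier: 4 genes of the CYCB1 subfamily, 2 of CYCB2, 2 of CDKB1 and 2 of CDKB2. All 10 were found among the 27322 gene models with usable values. Shoot apices were cut from inflorescences of 6-week plants, grown in a greenhouse at 22°C with 16 h of light, after the older flowers were taken away. The wild type was Col-0 (WT), and the mutant, mp clv3, carried the alleles mp319 and clv3-7. MP (MONOPTEROS) is an auxin response factor of organ initiation, and CLV3 is a signalling peptide that keeps the pool of shoot stem cells small. The number of plants per library is not known here. The labels give 2 biological replicates per genotype, but the table holds 1 value for each genotype, and no difference could be set against the spread between replicates. Levels are given as RPKM, read numbers scaled to the length of the gene model and the sequencing total. Ratios are of read numbers over the genotype's total. Every 95% interval, given in parentheses after a ratio or difference, is an exact one on read pairs and covers counting error only. "Called" means that the authors' deposited table lists an FDR under 0.05, from a test that is not stated. Whether that test took in the spread between replicates is not known, so a call is read here as a difference in read numbers only.

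Cyclin-dependent kinases act only when bound to a cyclin. B-type cyclin proteins build up before division, drive entry into mitosis, and are then destroyed through the anaphase-promoting complex (APC/C). Their transcripts mark dividing cells. CDKB kinases are specific to plants and are expressed from S phase to mitosis, whereas CDKA, the plant counterpart of the yeast and animal cell cycle kinase, is transcribed throughout the cycle. Transcription of many mitotic genes depends on MYB3R factors, which bind the mitosis-specific activator (MSA) element with the core AACGG.

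The table summed to 103347441 reads for mp clv3 and 101878433 for WT, of which the 10 genes took 0.0302% and 0.0459%. MP had 14.5 RPKM in mp clv3 against 46.1 in WT, and CLV3 had 15.8 RPKM against 0.0251, the latter from 2 reads. The positions of the lesions are not known here, so these levels do not check the mutations. Among 5 shoot meristem markers, STM, CLV1, WUS and LFY were called higher in mp clv3 and KNAT1 lower, and their summed level was 319 RPKM against 149 in WT. The 4 measured floral organ markers (AP3, PI, SEP1 and SEP2) summed to 1.43 RPKM against 312, with AP3, SEP1 and SEP2 at 2 reads each in mp clv3. All 6 anther tapetum markers were called lower (13.5 against 494 RPKM in sum, with MS2 at 0 reads in mp clv3), as were all 4 meiocyte markers (9.29 against 35.0 RPKM) and all 4 green tissue markers (1539 against 4678 RPKM). Whole apices were measured, so fewer cells of a type and less RNA per cell cannot be told apart. The part that these tissue differences have in the values below was not tested.

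All 10 genes had lower values in mp clv3 (CDKB1;1 turned to 0.01 on the log2 scale under TMM and the median of ratios, both other ways of scaling). The cyclins differed by more than the kinases in the median and in sum. Gene by gene they overlapped, with the kinase CDKB1;2 at a log2 ratio of -0.60 and the cyclin CYCB1;4 at -0.48. All 10 were called lower and none higher, where 43.5% of all models were called lower and 31.3% higher. Of the 12593 models in the same range of levels, 45% were called lower. With a 2-fold difference required, 2 of the 10 genes were called lower, both of them cyclins, beside 21.3% of all models lower and 9.85% higher, with 12.8% of models in the same range of levels lower. At that size the share of the 10 genes was therefore near that of all models. It was above that of models in the same range of levels, but rested on 2 genes. At 1.5-fold, 5 of the 6 cyclins and 1 of the 4 kinases were called lower, against 28.5% of all models. Under either TMM or the median of ratios, CYCB2;2 and CDKB1;2 fell short of 1.5-fold, which left 4 of the 6 cyclins and 0 of the 4 kinases, against 26.5% of all models. The median log2 ratio was -0.61 over the 10 genes, -0.80 over the cyclins and -0.27 over the kinases. Over all models above a floor of 6 reads it was -0.15, and over those in the same range of levels it was -0.0016.

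**Figure D1:**
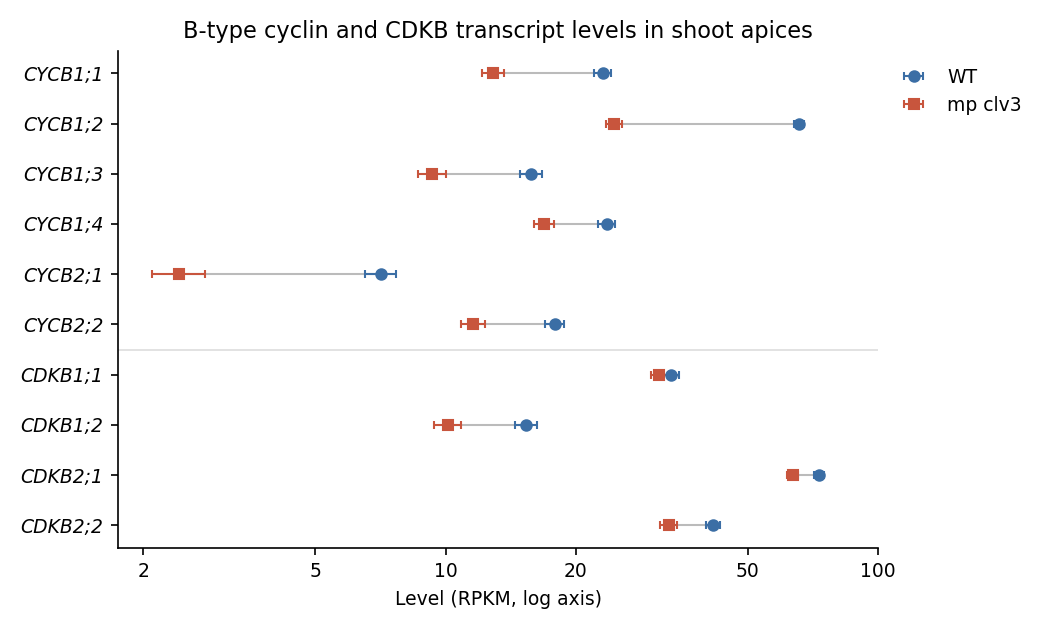
Level of each gene (RPKM, log axis) in WT (circles) and mp clv3 (squares), with 1 deposited value per genotype. Bars are 95% intervals for counting error only, and the grey line joins the genotypes. CYCB1;2 and CYCB2;1 have the longest lines, and the bars of CDKB1;1 overlap.

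CYCB1;2 (AT5G06150, CYC1BAT in RefSeq, chromosome 5, 1859279 to 1861703 of TAIR10.1 as for the positions that follow, minus strand, up to 5 exons) was the most abundant of the cyclins in both genotypes. It had 24.5 RPKM from 4249 reads in mp clv3 against 65.6 RPKM from 11221 reads in WT. The mutant thus held 37.3% of the WT level (35.5% to 39.3%). This gene made up 42.9% of the summed RPKM of the 6 cyclins in WT and 31.6% in mp clv3.

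The other CYCB1 genes differed less. CYCB1;1 (AT4G37490, chromosome 4, 17621886 to 17624308, minus strand, up to 8 exons) encodes the cyclin whose promoter and destruction signal are widely used in reporters of cells about to divide, and is also induced by DNA damage. It had 12.9 RPKM from 2140 reads in mp clv3 against 23.1 RPKM from 3778 reads in WT, a level 1.79-fold lower (1.66 to 1.93). CYCB1;3 (AT3G11520, chromosome 3, 3625286 to 3627273, minus strand, up to 5 exons) had 9.32 RPKM from 1473 reads against 15.8 RPKM from 2457 reads, 1.69-fold lower (1.54 to 1.86). The intervals of these ratios overlapped. CYCB1;4 (AT2G26760, chromosome 2, 11401118 to 11403433, plus strand, up to 5 exons) had 16.9 RPKM from 2807 reads against 23.6 RPKM from 3859 reads, 1.39-fold lower (1.30 to 1.49). In WT its level could not be told apart from that of AT4G37490, since their intervals overlapped, while in mp clv3 it was the higher of the pair.

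Within the subfamily, AT5G06150 had a lower log2 ratio than its relatives by more than counting error. Its log2 ratio minus that of AT4G37490 was -0.58 (-0.71 to -0.45). The same difference was -0.66 (-0.81 to -0.51) to AT3G11520 and -0.94 (-1.07 to -0.82) to AT2G26760.

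The CYCB2 genes differed from each other. CYCB2;1 (AT2G17620, chromosome 2, 7664055 to 7666522, plus strand, up to 10 exons) had the lowest level of the 10 genes in both genotypes, with 2.41 RPKM from 402 reads in mp clv3 against 7.08 RPKM from 1162 reads in WT. It also had the largest ratio of the 10, 2.93-fold lower (2.49 to 3.46), in an interval that overlapped that of AT5G06150 (2.55 to 2.82). That rank rested on adding no pseudocount to its low level. With 1 RPKM added, its log2 ratio went from -1.55 to -1.24, against -1.39 for AT5G06150. With 5 RPKM added, it was -0.70, which is no longer 2-fold, against -1.26. CYCB2;2 (AT4G35620, chromosome 4, 16901596 to 16904001, plus strand, up to 10 exons) had 11.6 RPKM from 1873 reads against 17.9 RPKM from 2853 reads, 1.55-fold lower (1.42 to 1.68). The log2 ratio of the first minus that of the second was -0.92 (-1.19 to -0.66), a difference beyond counting error.

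In sum, the kinases were closer to the WT level. CDKB2;1 (AT1G76540, chromosome 1, 28720328 to 28722550, minus strand, up to 8 exons) was the most abundant of the 10 genes in both genotypes, with 63.4 RPKM from 8772 reads in mp clv3 against 72.9 RPKM from 9941 reads in WT. It was 1.15-fold lower (1.10 to 1.20). CDKB2;2 (AT1G20930, chromosome 1, 7292389 to 7294746, minus strand, up to 8 exons) had 32.8 RPKM from 4111 reads against 41.5 RPKM from 5136 reads, 1.27-fold lower (1.20 to 1.34). CDKB2 kinases are expressed close to mitosis and are needed for a normally organised shoot meristem. Their transcripts in mp clv3 were at 87.0% (83.5% to 90.6%) and 78.9% (74.4% to 83.7%) of WT.

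The CDKB1 genes, known for holding cells back from endoreduplication, the replication of DNA without division, did not move alike. CDKB1;1 (AT3G54180, chromosome 3, 20059671 to 20061488, plus strand, up to 4 exons) had 31.2 RPKM from 3883 reads in mp clv3 against 33.2 RPKM from 4067 reads in WT. Its log2 ratio was -0.09 (-0.18 to 0.00), it turned to 0.01 under TMM scaling and the median of ratios, and an exact binomial test of read pairs did not call it, so no direction is given for it, although the authors' deposited table lists an FDR of 0.00846. That test called the other 9 genes lower, as it did 38.8% of all models. CDKB1;2 (AT2G38620, chromosome 2, 16152473 to 16154086, plus strand, up to 5 exons) had 10.1 RPKM from 1505 reads against 15.3 RPKM from 2248 reads, 1.52-fold lower (1.38 to 1.66). Its log2 ratio minus that of AT3G54180 was -0.51 (-0.67 to -0.35).

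**Figure D2:**
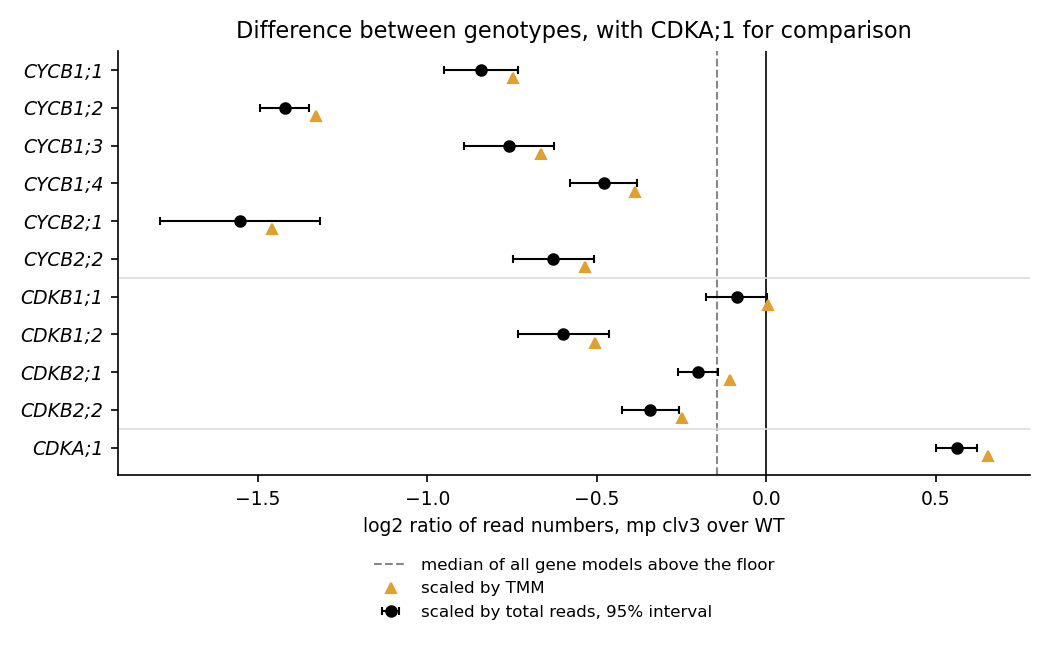
log2 ratio of read numbers, mp clv3 over WT, for the 10 genes and CDKA;1. Black points are scaled by total reads with 95% counting intervals, triangles by TMM, and the dashed line is the median of all models above the floor (-0.15). The cyclins lie between -1.55 and -0.48, the kinases between -0.60 and -0.09, and CDKA;1 is above 0.

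By exact sequence, the annotated transcripts were largely specific to each gene. Among annotated RefSeq transcripts (TAIR10.1), 7 of the 10 genes had no window of 100 bases, the read length, in common with another gene, and AT5G06150 had 1 such window, with AT1G34460. The kinase genes AT2G38620 and AT1G20930 shared 8.96% and 7.19% of their windows with AT2G38630 and AT1G20925, which overlap them on the opposite strand. Whether strand was used in counting is not known here, so reads of those stretches could come from either gene. Nor is it known whether the counted models hold those stretches. For AT1G20930 the model length behind the RPKM was 1214 bases, against 1393 in the longest RefSeq transcript. For AT2G38620 both were 1438 bases. AT2G38630 was listed with 1875 reads for mp clv3 and 2069 for WT, and AT1G20925 with 5 and 188. The other kinase genes overlap an opposite-strand gene over 71 and 44 bases.

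Summed over genes, which does not depend on how reads were split within a subfamily, CYCB1 was 2.03-fold lower (1.96 to 2.09) and CYCB2 1.79-fold lower (1.66 to 1.93). CDKB1 was 1.19-fold lower (1.13 to 1.25) and CDKB2 1.19-fold lower (1.15 to 1.23), and the difference between their log2 ratios was -0.0019 (-0.09 to 0.09). The sum of the cyclins was 77.5 RPKM in mp clv3 against 152.9 in WT, and that of the kinases 137.5 against 163.0 RPKM. For each RPKM of kinase WT had 0.938 RPKM of cyclin transcript and mp clv3 0.564, a comparison within each genotype that no scaling between genotypes can change. The log2 ratio of the summed cyclins minus that of the kinases was -0.74 (-0.80 to -0.68), and without AT5G06150 it was -0.47 (-0.54 to -0.40). The order of the cyclin subfamilies rested on that gene. The log2 ratio of CYCB1 minus that of CYCB2 was -0.18 (-0.30 to -0.06) with it and 0.17 (0.04 to 0.29) without it.

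The order of levels within the cyclins was the same in both genotypes, from CYCB1;2 through CYCB1;4, CYCB1;1, CYCB2;2 and CYCB1;3 down to CYCB2;1. The kinases kept the order CDKB2;1, CDKB2;2, CDKB1;1 and CDKB1;2. Across the 10 genes together the order shifted, as the most abundant cyclin ranked above all kinases but 1 in WT and below 3 of them in mp clv3. The span from the lowest to the highest level was 10.3-fold in WT and 26.3-fold in mp clv3. Neighbours in the order whose intervals overlapped in mp clv3 were AT1G20930 and AT3G54180, and each neighbouring pair in the run AT4G37490, AT4G35620, AT2G38620 and AT3G11520. In WT they were AT2G26760 and AT4G37490, and AT3G11520 and AT2G38620.

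The kinase gene CDKA;1, whose product partners D- and A-type cyclins, went the other way. It had 74.0 RPKM from 10841 reads in mp clv3 against 50.1 RPKM from 7237 reads in WT, 1.48-fold higher (1.42 to 1.54). Relative to it, the summed CDKB kinases stood at 3.25 in WT against 1.86 in mp clv3, and the summed cyclins at 3.05 against 1.05. The most abundant CDKB gene, AT1G76540, was above it in WT (1.45 RPKM for each of its RPKM) and below it in mp clv3 (0.857). Any gene with a log2 ratio below the 0.56 of CDKA;1 has a lower ratio to CDKA;1 in mp clv3. That held for all 10 genes, AT3G54180 included (0.422 against 0.661), and for the median of all models above the floor (-0.15). It therefore gives no direction for AT3G54180 itself.

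The letters AACGG, the MSA core, were searched on both strands from 250 bases before to 50 after each annotated start (RefSeq, TAIR10.1). All 6 cyclins held at least 2 cores, and the most was 5. Of all 27443 protein-coding promoters, 24.7% held a core and 4.89% held 2 or more. Of the 4 kinases 1 held a core. Among relatives outside the 10 genes, 1 of the 3 further B-type cyclins and 4 of 10 A-type cyclins held 2 or more. In that trio CYCB2;3 had 3 cores, CYCB3;1 had 1 and CYCB2;4 had 0. The stretches upstream of the start that carry the cores are printed for both cyclins with the largest ratios, each with the subfamily member whose cores follow the same order, and for the kinase with a core. They run 5′ to 3′ along the gene strand, with every AACGG, or CCGTT where the core is on the other strand, in capitals.
CYCB1;2 (chr5:1861704-1861858, minus strand): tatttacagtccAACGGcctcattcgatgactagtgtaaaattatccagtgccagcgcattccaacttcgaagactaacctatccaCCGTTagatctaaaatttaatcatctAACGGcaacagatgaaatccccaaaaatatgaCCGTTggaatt
CYCB1;3 (chr3:3627274-3627349, minus strand): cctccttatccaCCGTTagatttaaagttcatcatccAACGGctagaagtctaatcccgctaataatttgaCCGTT
CYCB2;1 (chr2:7663906-7664015, plus strand): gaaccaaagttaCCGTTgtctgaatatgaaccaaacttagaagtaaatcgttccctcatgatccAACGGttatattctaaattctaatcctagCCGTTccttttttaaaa
CYCB2;2 (chr4:16901412-16901510, plus strand): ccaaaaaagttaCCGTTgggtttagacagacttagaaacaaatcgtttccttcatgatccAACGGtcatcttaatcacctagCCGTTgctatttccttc
CDKB2;2 (chr1:7294819-7294847, minus strand): agaaaaaaagaaCCGTTgaaaaaacatga

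The order of the last 3 cores upstream of the start is other strand, gene strand, other strand in the 4 cyclin promoters printed, an agreement that the choice of sequences fixed. The starts of successive cores in this order were 26 and 32 bases apart in the first sequence, 25 and 34 in the second, 52 and 29 in the third, and 48 and 22 in the fourth. The remaining cyclins lacked this order. In AT4G37490 the cores began at -168 and -61 on the other strand and at -13 on the gene strand, and in AT2G26760 both cores lay after the start, at 1 and 28. A match is a run of letters and not a shown binding site. Among the cyclins, AT2G26760, with 2 cores, had a log2 ratio of -0.48, and AT5G06150, with 5, was at -1.42. Those with 3 cores ranged from -1.55 to -0.63, and both ends of that range were CYCB2 genes, 2.93-fold and 1.55-fold lower. Whether the number of cores has a part in the ratios was not tested.

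**Figure D3:**
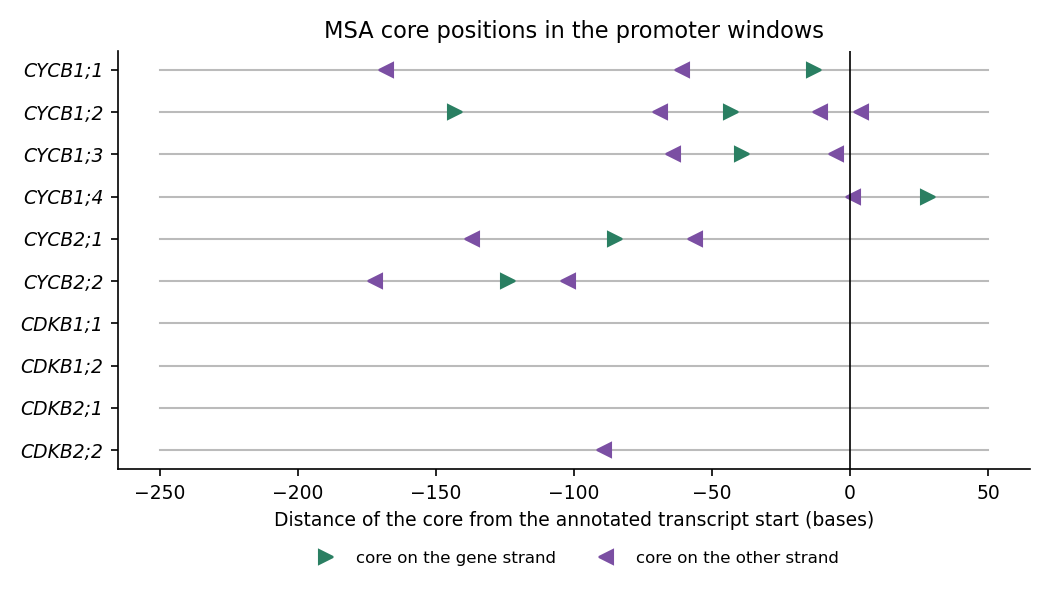
Position of each AACGG core, in bases from the annotated transcript start, on the gene strand (pointing right) or the other strand (pointing left), in the window of 250 bases before to 50 after the start. All 6 cyclins have 2 to 5 cores, and 3 of the 4 kinases have none.

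The MYB3R genes, which include activators and repressors, went in both directions. MYB3R4, an activator of mitotic genes, had 11.9 RPKM in mp clv3 against 16.4 in WT, a log2 ratio of -0.46 (-0.54 to -0.38). MYB3R3 and MYB3R5, which repress these genes outside mitosis, were called higher, by 0.24 (0.10 to 0.37) and 0.76 (0.59 to 0.93) on the log2 scale. MYB3R1, which has been assigned both roles, had 14.4 RPKM against 12.5, a log2 ratio of 0.20 (0.11 to 0.30). Together with E2F, DP and RBR1 genes, 9 measured regulators had 2 called lower, 6 called higher and a median log2 ratio of 0.20, where 43.5% of all models were called lower and 31.3% higher. Among them, the cell cycle activator gene E2FA was at -0.32 (-0.46 to -0.18) and E2FC, an E2F of the repressor kind, at 0.37 (0.26 to 0.49).

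Counts over other cyclins and partners of the CDKs stand beside 43.5% of all models called lower and 21.3% by 2-fold or more. In the range of levels of the 10 genes, the share lower by 2-fold or more was 12.8%. No share was matched to the levels of the lists here and below. The 3 further B-type cyclins CYCB2;3, CYCB2;4 and CYCB3;1 were each called lower, with log2 ratios of -0.39 (-0.49 to -0.30), -0.29 (-0.39 to -0.19) and -0.76 (-0.90 to -0.61). Of 10 A-type cyclins, 9 were called lower and none higher, and 2 of the 10 were lower by 2-fold or more, near the share of all models, and the median was -0.69 over the 9 above the floor. CYCA1;1 (12.7 against 29.1 RPKM) and CYCA2;1 (1.13 against 3.06 RPKM) had the largest ratios. CYCA3;2 had the smallest, -0.11 (-0.21 to -0.02). Of 9 CDK partners and CDK-activating kinases, 7 were called lower, 1 of them by 2-fold or more, and 2 higher (31.3% of all models were higher), with a median of -0.31, and the smallest difference, CDKF;1 at -0.09 (chosen after its value was seen), turned to just above 0 under TMM and the median of ratios. CKS1, a small subunit that docks CDKs to substrates, was 2.04-fold lower (1.91 to 2.17). The 2 called higher were CDKA;1 and WEE1, an inhibitory kinase gene with a log2 ratio of 0.55 (0.39 to 0.71).

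Genes that act in mitosis and cytokinesis had a median log2 ratio of -0.70, near that of the B-type cyclins. Of 24 measured, 21 were called lower and none higher, against 43.5% and 31.3% of all models. By 2-fold or more 3 were lower, which is 12.5% against 21.3% of all models. KN, the cytokinesis syntaxin KNOLLE, had 79.5 RPKM in mp clv3 against 129.6 in WT, a log2 ratio of -0.70 (-0.76 to -0.65). AUR2, an Aurora kinase gene, was at -1.21 (-1.34 to -1.08) and BUBR1, a spindle checkpoint gene, at -1.10 (-1.23 to -0.97). The kinesin genes TES and PAKRP1 were not called, at 0.06 (-0.03 to 0.16) and -0.02 (-0.11 to 0.07). In this list, with the promoter of TIO added, 18 of 25 promoters held a core and 8 held 2 or more. Of all promoters, 24.7% and 4.89% did.

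The machinery that destroys B-type cyclins was read in the same way. Of 14 genes of the APC/C and its regulators, 11 were called lower and 2 higher, against 43.5% and 31.3% of all models, with a median log2 ratio of -0.47. By 2-fold or more 3 were lower, or 21.4%, which is the share of all models (21.3%). The activator genes CDC20.1, CCS52A1 and CCS52A2 were at -0.76 (-0.82 to -0.71), -1.25 (-1.48 to -1.01) and -1.04 (-1.19 to -0.89). PANS1, a protector of sister chromatid cohesion that binds the complex, was 2.62-fold lower (2.43 to 2.83). The core subunit genes CDC27A and APC8 were higher, at 0.65 (0.45 to 0.85) and 0.17 (0.04 to 0.29).

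Genes of earlier phases of the cycle were also counted. All 11 S-phase genes were called lower, against 43.5% of all models, with a median log2 ratio of -0.50. By 2-fold or more 1 was lower, or 9.09% against 21.3%. TSO2, a ribonucleotide reductase subunit gene, was 3.21-fold lower (3.05 to 3.37), and the helicase gene MCM5 was at -0.16 (-0.23 to -0.10). No S-phase promoter held 2 cores, against 4.89% of all promoters with 2 or more. A core was held by 3 of 11, or 27.3%, near the 24.7% of all promoters. Of 10 D-type cyclins, which act at entry into the cycle, 7 were called lower and 2 higher, against 43.5% and 31.3% of all models, with a median of -0.52. By 2-fold or more 4 of the 10 were lower, against 21.3%. CYCD1;1 was at -1.53 (-1.61 to -1.45), while CYCD3;2 was at 0.87 (0.82 to 0.91), with 20525 reads for mp clv3 and 11107 for WT.

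**Figure D4:**
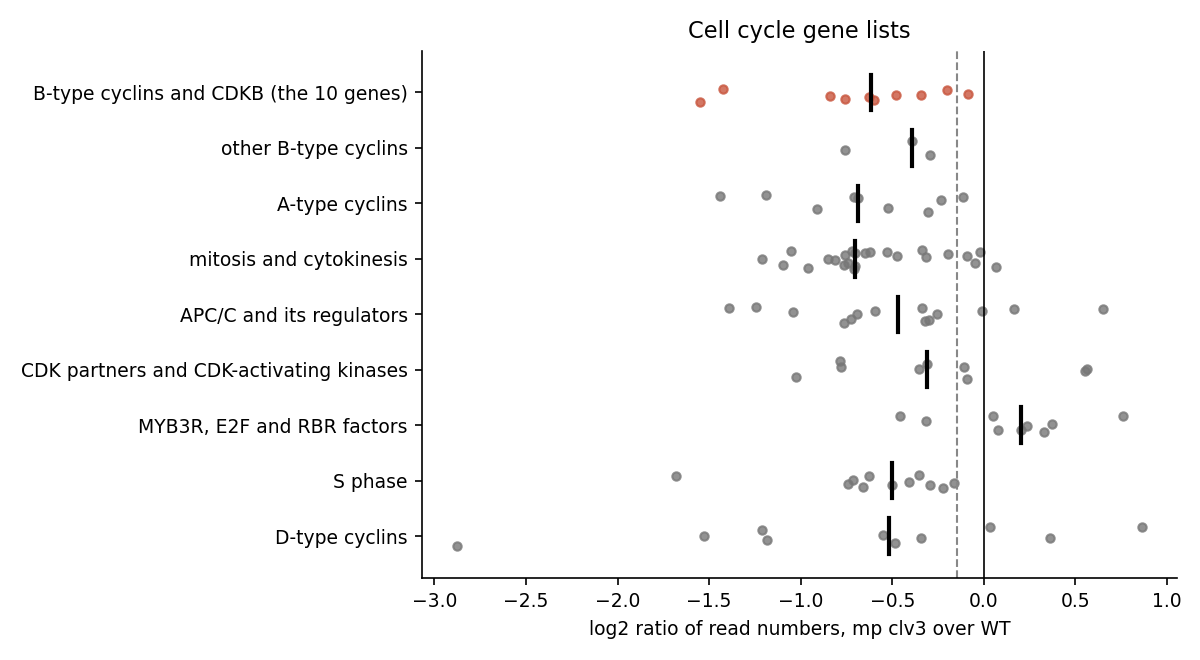
log2 ratio of read numbers, mp clv3 over WT, for every gene above the floor in each cell cycle list (points) with the median of the list (black bar). The dashed line is the median of all models above the floor. The points of all 10 B-type cyclin and CDKB genes are below 0 (CDKB1;1 is above 0 under TMM and the median of ratios), and the MYB3R, E2F and RBR factors have a median of 0.20.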

How the data were processed

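Poly(A) RNA from shoot apices was sequenced as paired reads of 100 bases from strand-specific libraries, per the labels' protocols. CASAVA 1.7, BWA and the TAIR10 build appear in the submitters' processing notes without their roles. The table deposited by the authors gives estimated counts (whole read numbers, with 0 written as 0.5 and set back to 0 here) and RPKM, 1 column of each per genotype. Whether replicates were summed is not stated. RPKM was computed by the authors from the read numbers, gene model length and a total per genotype, and their deposited log2 ratio compares the RPKM columns. Their deposited FDR is an adjusted p-value from an unstated test. Of 27323 models, 1 with cells shifted against the header was left out.

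Models with 2 reads outnumbered those with 1 (717 against 99 in mp clv3, 744 against 105 in WT), so intervals used read pairs: exact Clopper-Pearson for ratios, exact Poisson for RPKM, and the exact conditional odds ratio for differences between log2 ratios. An exact binomial test over all models, adjusted by Benjamini-Hochberg, gave a second set of calls. This test, which holds no replicate spread, called 38.8% of all models lower, against 43.5% by the deposited FDR. For AT4G37490 it gave an adjusted p-value of 1.28e-53, against a deposited FDR of 2.43e-106. Models with 6 reads (3 pairs) or fewer in both genotypes got no ratio. The planned test on values per library was not possible, and the planned protein motifs were not examined here. Alternatives were TMM (edgeR 4.0.16), the median of ratios, pseudocounts of 1 and 5 RPKM, an RPKM minimum of 1, an FDR of 0.01 and a 1.5-fold criterion. The naming rule took all 10 genes, related lists of up to 5 genes in full, the 2 lowest and 2 highest log2 ratios at 1 RPKM or more from other lists (not all printed), and CDKA;1, the MYB3R genes, CDC20.1, CCS52A2, KN and STM. Members and lists were chosen with earlier results of these data known, and comparisons between sums or between members after seeing their values. No read values were analysed for the listed genes E2FB, TIO and AG, while the promoter count for mitosis and cytokinesis includes TIO. Python 3.11.15 with scipy 1.17.1 was used.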

Additional observations from a re-analysis of the deposited data

How the results depend on the processing

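TMM and the median of ratios move every log2 ratio up by 0.09 and 0.10. Under them CDKB1;1 turned from -0.09 to 0.00599 and 0.0107, and the other 9 genes stayed lower. The summed log2 ratios became -0.93 and -0.92 for CYCB1, -0.16 and -0.15 for CDKB1, and -0.15 and -0.15 for CDKB2, outside their counting intervals. Adding 5 RPKM gave -0.96 for CYCB1 and -0.66 for CYCB2. The 2 genes called at least 2-fold lower became 6 at 1.5-fold, and 1, CYCB1;2, with 5 RPKM added. The 6 at 1.5-fold became 4 under TMM and 4 under the median of ratios, a pair of combined settings chosen after seeing the data. The 10 genes called lower became 9 under TMM and 9 by the exact binomial test of read pairs, and were 10 at an FDR under 0.01, with an RPKM minimum of 1 and with 5 RPKM added. A core was found in 7 promoters, and in 6 without the 50 bases after the start, beside 24.7% and 20.6% of all promoters. No paired analysis was possible because the table has 1 column per genotype and no replicate number, and for the same reason no replicate could be left out. Counting intervals hold no spread between plants.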

Other observations

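Across protein-coding models with at least 1 RPKM in either genotype, the number of AACGG cores in the promoter window went with small differences in the median log2 ratio. It was -0.07 over 14178 models with no core, -0.09 over 4021 with 1, -0.13 over 844 with 2 and -0.17 over 240 with 3 or more. The shares called at least 2-fold lower were 19.1%, 16.9%, 15.8% and 19.6%. The 5 B-type cyclins with 3 or more cores among the 10 genes had log2 ratios from -1.55 to -0.63.

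Of the mitosis and cytokinesis genes, those with 2 or more cores ranged in log2 ratio from -0.85 (TPX2, 3 cores) to 0.06 (TES, 2 cores). Between them were PAKRP1L (4 cores) at -0.74, and KN and PLE (3 each) at -0.70 and -0.62. PAKRP2 and MAD2 (2 each) were at -0.71 and -0.47. Those without a core ranged from -1.10 (BUBR1) to -0.05 (AUR3). TOPII, a topoisomerase gene chosen after its value was seen, had 2 cores and a log2 ratio of -0.34 (-0.38 to -0.30), and the kinesin gene TES, with 2 cores, was not called. The kinase subunit gene CKS1 held no core and was at -1.03 (-1.12 to -0.93). Among the A-type cyclins, the 4 with 2 or more cores had log2 ratios from -1.44 to -0.71. Those above the floor without a core ranged from -0.69 to -0.11. Whether the number of cores has a part in the ratios was not tested.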
